A study of Danio rerio with 12 samples.

Results

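The genotype-by-age interaction in zebrafish follicles asks, gene by gene, whether losing 1 copy of cdkn1a changed RNA levels differently at 8 months post-fertilization (8 mpf) than at 50 days post-fertilization (50 dpf). All 12 libraries of the series entered it, 3 in each of 4 groups, and no measured value chose them. The groups were HE fish (cdkn1a +/-) at 8 mpf, WT fish (cdkn1a +/+) at 8 mpf, HE fish at 50 dpf and WT fish at 50 dpf, and every library came from follicles at the primary growth stage in the AB strain. Heterozygotes stood for the mutation because homozygous mutants die as embryos, per the series' design text, and the disruption was made with CRISPR/Cas9, per its title. The labels used here name no allele, mutant line or number of fish per library, so p-values measure the spread between these libraries, which may be technical. The interaction is given on the log2 scale as the genotype effect at 8 mpf minus the genotype effect at 50 dpf, where a genotype effect is the log2 ratio of heterozygotes to wild types. A positive interaction therefore means a higher ratio of heterozygotes to wild types at 8 mpf than at 50 dpf. Levels are CPM, counts scaled to the size of each library with TMM factors, ± is the SD over 3 libraries, and every adjusted p is from edgeR's quasi-likelihood test with Benjamini-Hochberg adjustment over all tested genes, with a threshold of 0.05.

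cdkn1a encodes p21, an inhibitor of cyclin-dependent kinases that p53 induces after DNA damage and that holds cells in G1. A primary growth follicle is an oocyte arrested in meiotic prophase within a thin layer of somatic follicle cells, before yolk is taken up; the oocyte stores mRNA for the egg and early embryo. Fish at 50 dpf are juveniles near the first wave of follicle growth, while fish at 8 mpf are adults whose ovary holds follicles of every stage.

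The libraries held 31044931 to 96839220 counts, and 18834 of 32057 genes passed the filter on low counts and were tested. cdkn1a itself had 0.397, 0.651 and 0.583 CPM in heterozygotes, against 0.668, 1.13 and 0.778 CPM in wild types at 8 mpf, and 0.450, 0.422 and 0.519 CPM in heterozygotes, against 3.37, 3.87 and 3.503 CPM in wild types at 50 dpf. Wild types at 50 dpf stood above the other 3 groups, and at 8 mpf the lowest wild-type library lay only just above the highest heterozygous one. The interaction of cdkn1a was 2.26 (SE 0.38, adjusted p = 0.00193), with a genotype effect of -0.68 at 8 mpf (adjusted p = 0.0679) and -2.94 at 50 dpf. The exact two-sided permutation p was 0.1 at each age, the smallest that 3 against 3 libraries allow. Oocyte markers were abundant in every library, with a summed level of 21200 to 22770 CPM in heterozygotes and 12960 to 17590 CPM in wild types at 8 mpf, and of 34790 to 43930 CPM in heterozygotes and 20050 to 23370 CPM in wild types at 50 dpf. Egg coat genes of the zp3 family made up most of this sum. At 50 dpf DDX4 was lower in heterozygotes (69.6 to 94.2 against 95.3 to 99.0 CPM) and DAZL overlapped, while the other oocyte markers were higher. At 8 mpf DDX4, DAZL, GDF9 and zp3a.1 overlapped between the genotypes. Of 7 defining genes of somatic follicle cells gsdf, a TGF-beta family factor of fish gonads, had the highest levels, with 1.93 to 2.44 CPM in heterozygotes and 2.23 to 3.42 CPM in wild types at 8 mpf. At 50 dpf gsdf had 13.5 to 17.3 CPM in heterozygotes and 36.3 to 43.1 CPM in wild types. The other 6 had 0 to 6.82 CPM over all libraries, and FSHR, at 0 to 0.268 CPM, was near 0 in each. In bulk RNA, fewer cells of a type and less RNA per cell cannot be told apart, and the labels give no sampling date, so age and any batch shared by the libraries of an age cannot be told apart either. For the same reason, a batch particular to a single group cannot be told apart from an interaction.

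The genotype effect differed between the ages for 2548 genes, which is 13.5% of those tested. 1295 genes (6.88%) had a positive interaction and 1253 genes (6.65%) a negative one, and 1556 (8.26%) passed with an absolute log2 interaction of at least 1. Of the 2548 genes, 1108 had a genotype call at 50 dpf alone, 633 at 8 mpf alone, 477 at both ages in the same direction, 275 at both ages in opposite directions and 55 at neither. The median absolute genotype effect of the called genes was 0.599 at 8 mpf and 0.859 at 50 dpf, and the effect was larger at 50 dpf for 1551 of them. The same lean was present over all tested genes, of which 11203 had the larger effect at 50 dpf and for which genotype calls were made on 28.1% at 8 mpf and 40.8% at 50 dpf. Without replicate 2 of the 8 mpf wild types 4118 genes were called, and without replicate 2 of the 50 dpf wild types 1699. Scaling by library size alone, without TMM, moved genotype calls to 1337 higher and 4037 lower in heterozygotes at 8 mpf and 1618 higher and 6749 lower at 50 dpf, against 2377 higher and 2911 lower at 8 mpf and 3696 higher and 3995 lower at 50 dpf with TMM. It also moved the median interaction of all genes to 0.18 from 0.04 and split the calls into 1577 positive and 935 negative. The split by sign thus depends on the scaling, and with library size alone the median interaction also changed sign for the DNA damage repair, TGF-beta and BMP, ATF4, cell cycle, circadian, endothelial, immediate early, p53 target, proteasome and muscle lists below.

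**Figure D1:**
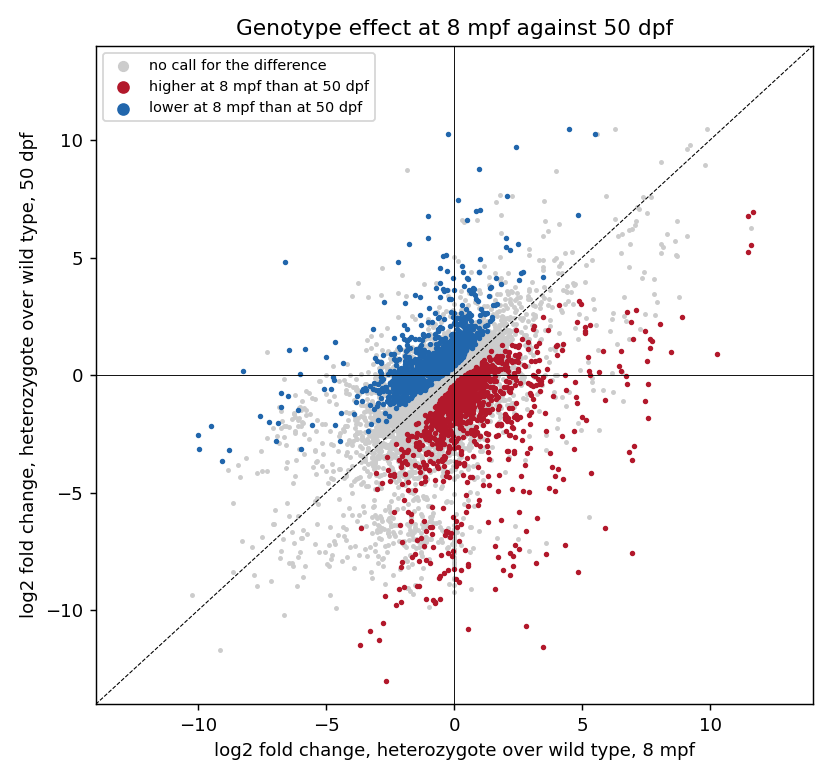
Genotype effect (log2 ratio of heterozygotes to wild types) of each of the 18834 tested genes at 8 mpf on the x axis and at 50 dpf on the y axis; the dashed line marks equal effects. Red points are the 1295 genes with a positive interaction, blue points the 1253 with a negative one and grey points the rest; values beyond about 6 come mostly from genes with no or almost no counts in 1 group.

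A group was said to stand apart for a gene when its mean log2 CPM lay farther from the nearest other group mean than the whole range of the other 3 groups. By that measure 325 of the called genes (12.8%) had heterozygotes at 8 mpf standing apart, 296 (11.6%) wild types at 8 mpf, 517 (20.3%) heterozygotes at 50 dpf and 564 (22.1%) wild types at 50 dpf, while for 846 (33.2%) no group stood apart. No group carried the interaction alone, and the 50 dpf groups stood apart more often than the 8 mpf groups among the called genes. Over all tested genes, where no interaction is required, the shares were 7.44% for heterozygotes at 8 mpf, 7.62% for wild types at 8 mpf and 13.1% for each 50 dpf group. Of the genes for which a group stood apart, those called made up 23.2% for heterozygotes and 20.6% for wild types at 8 mpf. At 50 dpf they made up 21% for heterozygotes and 22.9% for wild types. The lean to 50 dpf was thus not particular to the called genes. Heterozygotes at 8 mpf stood apart by being lower for 239 called genes and higher for 86, against 849 lower and 553 higher over all tested genes. Wild types at 8 mpf were lower for 169 called genes and higher for 127 (all tested: 794 and 642). Heterozygotes at 50 dpf were lower for 307 and higher for 210 (all tested: 1347 and 1113). Wild types at 50 dpf were lower for 290 and higher for 274, while over all tested genes they were more often higher (1007 lower, 1459 higher). With a gap of at least 2 times the range, the counts of called genes were 159, 153, 264 and 293 in the same order of groups. Without replicate 2 of the 8 mpf wild types, 564 genes had wild types at 8 mpf standing apart, 773 heterozygotes at 50 dpf and 877 wild types at 50 dpf. Without replicate 2 of the 50 dpf wild types, 326 had heterozygotes at 50 dpf and 370 wild types at 50 dpf standing apart.

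**Figure D2:**
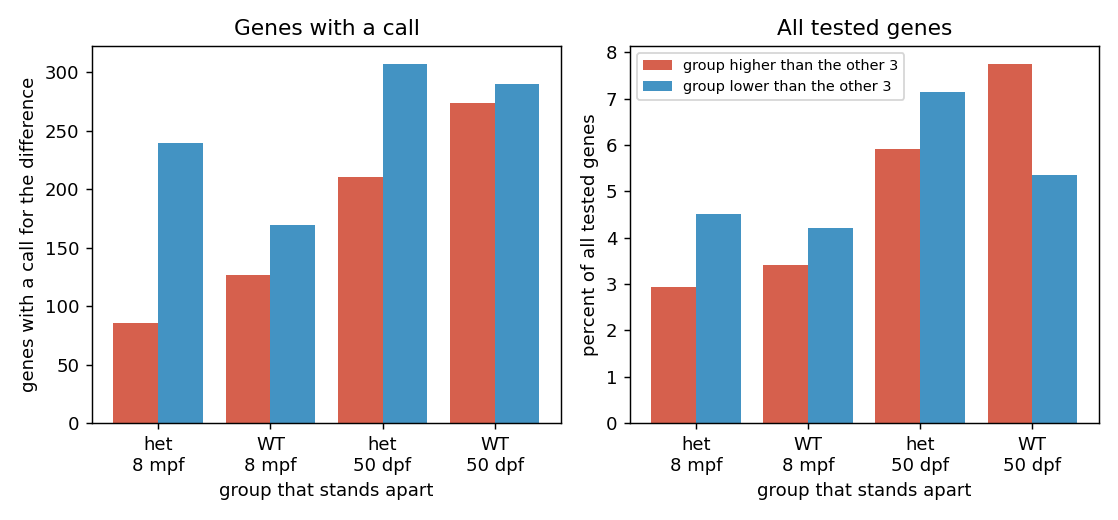
Number of called genes (left) and percent of all 18834 tested genes (right) for which 1 group stands apart from the other 3, by group and by direction. Bars for heterozygotes at 8 mpf are uneven in both panels, with 86 genes higher and 239 lower at left and 2.94% higher and 4.51% lower at right. The bars of both 50 dpf groups are taller than those of wild types at 8 mpf.

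Genes set apart by high levels in heterozygotes at 8 mpf were led by cyp2aa7, KIF13A and VIT. cyp2aa7, a cytochrome P450 gene, had 10.6, 9.26 and 9.59 CPM in heterozygotes against 1.46, 2.15 and 1.83 CPM in wild types at 8 mpf. It had 1.004, 1.13 and 1.07 CPM in heterozygotes against 2.70, 1.94 and 2.71 CPM in wild types at 50 dpf. Every 8 mpf heterozygous library was above all 9 others, and the interaction was 3.64 (SE 0.26, adjusted p = 5.66e-06), with effects of 2.43 at 8 mpf and -1.21 at 50 dpf. KIF13A, a kinesin motor that carries cargo along microtubules, had 17.8 ± 1.87 CPM in heterozygotes and 7.93 ± 1.105 CPM in wild types at 8 mpf. At 50 dpf KIF13A had 3.84 ± 0.429 CPM in heterozygotes and 7.05 ± 0.512 CPM in wild types, an interaction of 2.04 (SE 0.20, adjusted p = 5.06e-05). VIT, which encodes the matrix protein vitrin, had 5.17 ± 0.549 CPM in heterozygotes and 0.651 ± 0.268 CPM in wild types at 8 mpf. At 50 dpf VIT had 0.691 ± 0.0443 CPM in heterozygotes and 1.17 ± 0.103 CPM in wild types, an interaction of 3.72 (SE 0.38, adjusted p = 6.49e-05). All 3 genes passed in both directions, higher in heterozygotes at 8 mpf and lower at 50 dpf.

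Low levels in heterozygotes at 8 mpf were the more frequent form, as they were over all tested genes. SQLE (ENSDARG00000079946), kcnj21 and SLC43A2 (ENSDARG00000061120) led this form. SQLE encodes squalene epoxidase, an early oxygen-requiring step of cholesterol synthesis. It had 0.661, 0.651 and 0.885 CPM in heterozygotes against 6.46, 5.46 and 7.30 CPM in wild types at 8 mpf. At 50 dpf SQLE had 5.44, 6.23 and 6.17 CPM in heterozygotes against 3.36, 3.10 and 4.24 CPM in wild types. The 3 heterozygous libraries at 8 mpf stayed under 1 CPM and every other library was over 3 CPM. Its interaction was -3.84 (SE 0.26, adjusted p = 3.29e-06), with effects of -3.10 at 8 mpf and 0.73 at 50 dpf. kcnj21, an inward rectifier potassium channel gene, had 5.44, 4.79 and 5.52 CPM in heterozygotes against 15.02, 15.7 and 16.2 CPM in wild types at 8 mpf. At 50 dpf kcnj21 had 24.9, 23.7 and 20.6 CPM in heterozygotes against 16.01, 14.7 and 14.8 CPM in wild types, and its interaction was -2.17 (SE 0.16, adjusted p = 5.66e-06). SLC43A2, a transporter of large neutral amino acids, had 3.98 ± 0.309 CPM in heterozygotes and 19.0 ± 4.19 CPM in wild types at 8 mpf. At 50 dpf SLC43A2 had 14.8 ± 0.941 CPM in heterozygotes and 9.81 ± 0.947 CPM in wild types, with an interaction of -2.85 (SE 0.23, adjusted p = 1.12e-05).

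DOCK10, mafbb and DLG4 (ENSDARG00000039385) were highest in wild types at 8 mpf. DOCK10, of the DOCK family of guanine nucleotide exchange factors, had 8.48, 9.56 and 7.16 CPM in heterozygotes against 51.6, 43.5 and 47.5 CPM in wild types at 8 mpf. At 50 dpf DOCK10 had 11.2, 15.2 and 15.6 CPM in heterozygotes against 18.6, 19.9 and 16.4 CPM in wild types. Its lowest wild-type library at 8 mpf was over 2 times its highest library in any other group, and the interaction was -2.12 (SE 0.21, adjusted p = 5.99e-05). mafbb, a bZIP transcription factor gene, had 3.91 ± 0.528 CPM in heterozygotes and 14.9 ± 3.503 CPM in wild types at 8 mpf. At 50 dpf mafbb had 3.88 ± 0.910 CPM in heterozygotes and 2.92 ± 0.164 CPM in wild types, an interaction of -2.34 (SE 0.29, adjusted p = 0.000251). DLG4, a scaffold protein best known from synapses, had 3.43 ± 0.113 CPM in heterozygotes and 17.4 ± 1.97 CPM in wild types at 8 mpf. At 50 dpf DLG4 had 1.63 ± 0.249 CPM in heterozygotes and 2.75 ± 0.192 CPM in wild types, an interaction of -1.58 (SE 0.20, adjusted p = 0.000347).

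opn7d, actn3b and TDRD7 were lowest in wild types at 8 mpf. opn7d, an opsin gene, had 8.81, 8.45 and 8.88 CPM in heterozygotes against 0.243, 0.221 and 0.225 CPM in wild types at 8 mpf. At 50 dpf opn7d had 11.1, 8.55 and 10.2 CPM in heterozygotes against 5.59, 5.87 and 5.94 CPM in wild types. All 3 wild-type libraries at 8 mpf were under 1 CPM and every other library was over 5 CPM, with an interaction of 4.46 (SE 0.20, adjusted p = 1.93e-07). actn3b, an alpha-actinin of fast muscle, had 12.4, 11.8 and 12.3 CPM in heterozygotes against 1.13, 0.675 and 1.33 CPM in wild types at 8 mpf. At 50 dpf actn3b had 4.64, 5.53 and 5.68 CPM in heterozygotes against 15.1, 16.2 and 16.5 CPM in wild types, an interaction of 5.15 (SE 0.28, adjusted p = 7.52e-07). TDRD7 encodes a Tudor-domain protein of germ granules. It had 10.6, 10.3 and 10.47 CPM in heterozygotes against 1.48, 1.44 and 1.003 CPM in wild types at 8 mpf. At 50 dpf TDRD7 had 5.92, 7.64 and 7.58 CPM in heterozygotes against 12.5, 13.3 and 12.5 CPM in wild types, an interaction of 3.85 (SE 0.22, adjusted p = 1.21e-06). Both actn3b and TDRD7 were higher in heterozygotes at 8 mpf and lower at 50 dpf.

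At 50 dpf, heterozygotes stood above the rest for scn1laa, klhl35 and GLUL (ENSDARG00000099776). scn1laa, a voltage-gated sodium channel gene, had 20.9, 19.8 and 20.6 CPM in heterozygotes against 13.7, 12.7 and 14.9 CPM in wild types at 8 mpf. At 50 dpf scn1laa had 75.7, 71.5 and 68.4 CPM in heterozygotes against 11.3, 11.3 and 11.8 CPM in wild types. The 3 heterozygous libraries at 50 dpf were more than 3 times any other, and the genotype effect was 0.57 at 8 mpf and 2.65 at 50 dpf, an interaction of -2.08 (SE 0.13, adjusted p = 1.95e-06). klhl35, a kelch-like family gene, had 18.1 ± 2.03 CPM in heterozygotes and 27.8 ± 4.15 CPM in wild types at 8 mpf. At 50 dpf klhl35 had 80.5 ± 4.91 CPM in heterozygotes and 21.9 ± 0.494 CPM in wild types, an interaction of -2.50 (SE 0.17, adjusted p = 4.28e-06). GLUL, glutamine synthetase, had 31.3 ± 4.35 CPM in heterozygotes and 48.2 ± 6.32 CPM in wild types at 8 mpf. At 50 dpf GLUL had 113 ± 11.03 CPM in heterozygotes and 36.5 ± 0.973 CPM in wild types, an interaction of -2.25 (SE 0.18, adjusted p = 1.12e-05).

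RXFP2 (ENSDARG00000019660) and fap had 0 counts in all 3 heterozygous libraries at 50 dpf. RXFP2, a receptor of relaxin-family hormones, had 2.38, 2.70 and 2.38 CPM in heterozygotes against 17.2, 13.2 and 16.2 CPM in wild types at 8 mpf, and 0, 0 and 0 CPM in heterozygotes, against 19.8, 20.2 and 19.6 CPM in wild types at 50 dpf. Heterozygotes were lower at both ages, at least 198-fold lower at 50 dpf against a floor of 3 counts per library, with an adjusted p for the interaction of 1.21e-06. fap, a serine protease of activated fibroblasts in mammals, had 0.612, 0.628 and 0.760 CPM in heterozygotes against 5.53, 5.04 and 4.84 CPM in wild types at 8 mpf, and it was at least 57.9-fold lower in heterozygotes at 50 dpf, where wild types had 5.81 ± 1.04 CPM (adjusted p for the interaction 4.71e-05). MARCHF4 (ENSDARG00000055839), a membrane-bound ubiquitin ligase, had 18.1 ± 0.465 CPM in heterozygotes and 26.3 ± 1.55 CPM in wild types at 8 mpf. At 50 dpf MARCHF4 had 7.35 ± 0.704 CPM in heterozygotes and 32.7 ± 0.926 CPM in wild types, and its interaction was 1.62 (SE 0.14, adjusted p = 2e-05).

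Wild types at 50 dpf stood above the rest for tfa, CCR6 (ENSDARG00000087474) and crlf1a. tfa, the iron carrier transferrin of plasma, had 4.56, 3.86 and 3.78 CPM in heterozygotes against 2.23, 2.18 and 2.28 CPM in wild types at 8 mpf. At 50 dpf tfa had 6.96, 4.999 and 5.77 CPM in heterozygotes against 43.9, 43.6 and 47.0 CPM in wild types. The genotype effect changed sign between the ages, 0.87 at 8 mpf and -2.92 at 50 dpf, an interaction of 3.79 (SE 0.19, adjusted p = 5.49e-07). CCR6, a chemokine receptor, had 4.57 ± 0.552 CPM in heterozygotes and 4.44 ± 0.249 CPM in wild types at 8 mpf. At 50 dpf CCR6 had 3.23 ± 0.209 CPM in heterozygotes and 22.6 ± 1.45 CPM in wild types, an interaction of 2.85 (SE 0.18, adjusted p = 1.96e-06). crlf1a, a cytokine receptor-like factor, had 2.39 ± 0.159 CPM in heterozygotes and 6.04 ± 0.555 CPM in wild types at 8 mpf. At 50 dpf crlf1a had 1.66 ± 0.375 CPM in heterozygotes and 29.2 ± 0.838 CPM in wild types, an interaction of 2.80 (SE 0.21, adjusted p = 9.89e-06).

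FLT4, slc52a3-2b and KCTD12 were lowest in wild types at 50 dpf. FLT4, a receptor of VEGF-C that drives lymphatic growth, had 29.1, 24.7 and 27.0 CPM in heterozygotes against 19.1, 16.7 and 17.9 CPM in wild types at 8 mpf. At 50 dpf FLT4 had 38.9, 42.6 and 39.6 CPM in heterozygotes against 3.505, 2.83 and 3.43 CPM in wild types. Heterozygotes were higher at both ages, but the effect was 0.59 at 8 mpf and 3.62 at 50 dpf, an interaction of -3.03 (SE 0.16, adjusted p = 7.52e-07). slc52a3-2b, a riboflavin transporter gene, had 11.4 ± 0.825 CPM in heterozygotes and 23.3 ± 3.87 CPM in wild types at 8 mpf. At 50 dpf slc52a3-2b had 13.0 ± 1.64 CPM in heterozygotes and 3.99 ± 0.283 CPM in wild types, an interaction of -2.73 (SE 0.21, adjusted p = 9.58e-06). KCTD12, an auxiliary subunit of GABA-B receptors, had 4.87 ± 0.0827 CPM in heterozygotes and 8.95 ± 1.36 CPM in wild types at 8 mpf. At 50 dpf KCTD12 had 4.53 ± 0.754 CPM in heterozygotes and 0.929 ± 0.150 CPM in wild types, an interaction of -3.16 (SE 0.24, adjusted p = 1.03e-05). Both were lower in heterozygotes at 8 mpf and higher at 50 dpf.

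**Figure D3:**
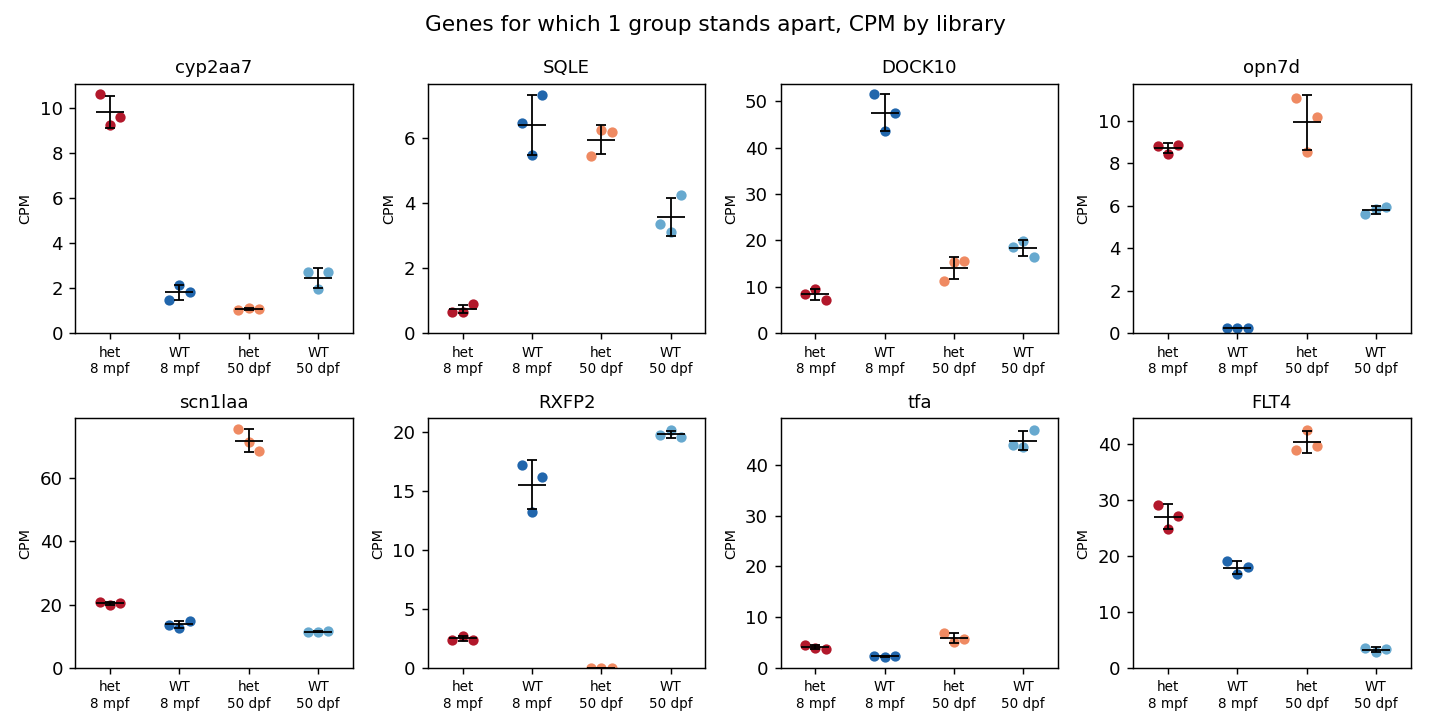
CPM by library (points), with the mean and SD over 3 libraries (bars), for 1 gene of each pattern, with heterozygotes left of wild types at each age. cyp2aa7 and SQLE are set apart by heterozygotes at 8 mpf, DOCK10 and opn7d by wild types at 8 mpf, scn1laa and RXFP2 by heterozygotes at 50 dpf, and tfa and FLT4 by wild types at 50 dpf.

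The genotype effect passed in opposite directions at the 2 ages for 275 genes (1.46% of those tested), 143 higher in heterozygotes at 8 mpf and lower at 50 dpf and 132 the other way. helz2c, a helicase gene, and prkd4, a protein kinase D gene, led these with actn3b. helz2c had 0.975, 1.49 and 1.68 CPM in heterozygotes against 0.344, 0.356 and 0.294 CPM in wild types at 8 mpf. At 50 dpf helz2c had 2.53, 2.39 and 2.44 CPM in heterozygotes against 8.75, 9.35 and 10.7 CPM in wild types, an interaction of 4.02 (SE 0.29, adjusted p = 5.66e-06). prkd4 had 1.03 ± 0.177 CPM in heterozygotes and 0.218 ± 0.0706 CPM in wild types at 8 mpf. At 50 dpf prkd4 had 2.29 ± 0.474 CPM in heterozygotes and 9.06 ± 0.456 CPM in wild types, an interaction of 4.19 (SE 0.32, adjusted p = 1e-05). In both, wild types held the highest level at 50 dpf and the lowest at 8 mpf, and heterozygotes lay between at both ages.

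Genes of liver plasma proteins had the highest share of calls of the 31 gene lists. Of 50 tested members 35 had a positive interaction, 1 a negative one and 14 did not pass, which is 72% against 13.5% of all tested genes. The median interaction of the list was 3.76 (3.54 with the 8 members that had 0 counts in a whole group set at a floor of 3 counts), against 0.04 over all genes. Its median genotype effect was 0.90 at 8 mpf and -3.12 at 50 dpf. fetub, the plasma protein fetuin B, had 1.26, 0.954 and 1.27 CPM in heterozygotes against 0.0810, 0.331 and 0.242 CPM in wild types at 8 mpf. At 50 dpf fetub had 6.20, 6.20 and 4.61 CPM in heterozygotes against 55.6, 57.0 and 58.5 CPM in wild types. Each wild-type library at 50 dpf was over 8 times any library of the other groups, and the interaction was 5.66 (SE 0.36, adjusted p = 2.12e-06). CP, the copper oxidase ceruloplasmin, had 1.26 ± 0.0813 CPM in heterozygotes and 0.292 ± 0.133 CPM in wild types at 8 mpf. At 50 dpf CP had 2.06 ± 0.261 CPM in heterozygotes and 10.6 ± 0.158 CPM in wild types, an interaction of 4.41 (SE 0.32, adjusted p = 5.89e-06). fabp10a, the liver fatty acid-binding protein, had 1.79 ± 0.443 CPM in heterozygotes and 0.115 ± 0.0995 CPM in wild types at 8 mpf. At 50 dpf fabp10a had 1.28 ± 0.572 CPM in heterozygotes and 19.0 ± 1.33 CPM in wild types, an interaction of 7.72 (SE 0.60, adjusted p = 1.05e-05). Wild types at 50 dpf stood apart for 13 of the 36 called members and wild types at 8 mpf for 4, while no group stood apart for 16.

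The vitellogenins, precursors of egg yolk made in the liver, followed another course. vtg1 had 186, 154 and 150.4 CPM in heterozygotes against 39.4, 45.7 and 50.9 CPM in wild types at 8 mpf. At 50 dpf vtg1 had 365, 301 and 283 CPM in heterozygotes against 266, 233 and 302 CPM in wild types. Wild types at 8 mpf were low and the 50 dpf groups overlapped, with an interaction of 1.61 (SE 0.20, adjusted p = 0.000251). vtg2 had 44.9 ± 9.44 CPM in heterozygotes and 10.96 ± 0.223 CPM in wild types at 8 mpf. At 50 dpf vtg2 had 136 ± 24.2 CPM in heterozygotes and 98.0 ± 10.3 CPM in wild types, an interaction of 1.56 (SE 0.22, adjusted p = 0.000648). vtg3 had 2.97 ± 0.473 CPM in heterozygotes and 0.877 ± 0.375 CPM in wild types at 8 mpf. At 50 dpf vtg3 had 8.07 ± 0.918 CPM in heterozygotes and 5.51 ± 0.407 CPM in wild types, an interaction of 1.18 (SE 0.33, adjusted p = 0.033) that missed the threshold in 11 of 21 alternative settings. apoeb, an apolipoprotein that other cells also make, was the 1 member with a negative interaction, -2.92 (SE 0.33, adjusted p = 0.000149), with 36.0 ± 8.44 CPM in heterozygotes and 134 ± 45.7 CPM in wild types at 8 mpf. At 50 dpf apoeb had 17.5 ± 2.68 CPM in heterozygotes and 8.58 ± 0.361 CPM in wild types. The vitellogenins, apoeb and the amylase gene amy2al1 below were picked for naming after their values were seen.

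Exocrine pancreas genes, whose enzymes digest food, had a positive interaction for 16 of 26 tested members, with 1 negative and 9 that did not pass (65.4% called). The median interaction was 2.40 (2.18 with 3 members set at the floor), and the median genotype effect was 1.44 at 8 mpf and -0.60 at 50 dpf. CPB1, carboxypeptidase B, had 6.81, 3.98 and 4.20 CPM in heterozygotes against 1.70, 1.41 and 0.899 CPM in wild types at 8 mpf. At 50 dpf CPB1 had 11.5, 11.6 and 8.71 CPM in heterozygotes against 18.2, 20.2 and 16.3 CPM in wild types. Libraries of the 2 genotypes did not overlap at either age, heterozygotes being higher at 8 mpf and lower at 50 dpf, with an interaction of 2.69 (SE 0.35, adjusted p = 0.000347). ela2l, an elastase, had 4.08, 2.86 and 2.53 CPM in heterozygotes against 0, 0.0368 and 0 CPM in wild types at 8 mpf (3 counts in all for wild types), and 11.7 ± 2.37 CPM in heterozygotes and 25.1 ± 1.01 CPM in wild types at 50 dpf, with an adjusted p of 1.71e-06 for the interaction. amy2a, an amylase, had 5.90 ± 2.11 CPM in heterozygotes and 1.45 ± 0.872 CPM in wild types at 8 mpf. At 50 dpf amy2a had 8.43 ± 1.33 CPM in heterozygotes and 28.0 ± 3.68 CPM in wild types, an interaction of 3.77 (SE 0.49, adjusted p = 0.000347). CEL (ENSDARG00000029822), a bile salt-activated lipase, had 3.77 ± 1.13 CPM in heterozygotes and 0.739 ± 0.326 CPM in wild types at 8 mpf. At 50 dpf CEL had 10.04 ± 1.54 CPM in heterozygotes and 13.5 ± 1.14 CPM in wild types, an interaction of 2.80 (SE 0.38, adjusted p = 0.000463). The 1 negative member was amy2al1, at -0.55 (SE 0.12, adjusted p = 0.0107), which did not pass in 1 alternative setting.

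These genes are markers of tissues other than the follicle. The whole liver list held 0.0305% to 0.038% of counts in heterozygotes and 0.021% to 0.036% in wild types at 8 mpf. At 50 dpf the list held 0.053% to 0.055% of counts in heterozygotes and 0.081% to 0.092% in wild types. 5 liver markers summed to 7.42 to 9.90 CPM in heterozygotes and 2.61 to 3.25 CPM in wild types at 8 mpf, and to 15.7 to 17.8 CPM in heterozygotes and 163 to 176 CPM in wild types at 50 dpf. 10 pancreas markers summed to 34.8 to 62.2 CPM in heterozygotes and 12.7 to 24.8 CPM in wild types at 8 mpf, and to 131 to 210 CPM in heterozygotes and 206 to 238 CPM in wild types at 50 dpf. Libraries of the 2 genotypes overlapped for the pancreas marker sum at 50 dpf and did not for the other marker sums. Whether other tissue in the samples had a part in the result was not tested. Outside both lists, which do not hold every gene of liver or pancreas, the interaction was called for 2495 genes, 1244 positive and 1251 negative.

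Glycolysis genes were called for 13 of 41 tested members (31.7%), 5 positive and 8 negative, with a median interaction of -0.23 (-0.22 with 2 members set at the floor). PKLR, the liver and red cell pyruvate kinase of mammals, had 1.32, 1.23 and 1.14 CPM in heterozygotes against 0.101, 0.442 and 0.588 CPM in wild types at 8 mpf. At 50 dpf PKLR had 2.87, 3.13 and 2.60 CPM in heterozygotes against 16.7, 15.9 and 19.2 CPM in wild types. Each wild-type library at 50 dpf was over 5 times any library of the other groups, and the interaction was 4.24 (SE 0.45, adjusted p = 8.22e-05). PFKFB4, which sets the level of the glycolytic activator fructose 2,6-bisphosphate, had 47.7, 49.9 and 50.5 CPM in heterozygotes against 63.8, 62.6 and 62.9 CPM in wild types at 8 mpf. At 50 dpf PFKFB4 had 125, 102 and 100.8 CPM in heterozygotes against 72.9, 69.7 and 75.3 CPM in wild types. It was lower in heterozygotes at 8 mpf and higher at 50 dpf, an interaction of -0.95 (SE 0.13, adjusted p = 0.000574). TPI1 (ENSDARG00000040988), triosephosphate isomerase, had 56.8 ± 1.67 CPM in heterozygotes and 50.7 ± 2.58 CPM in wild types at 8 mpf. At 50 dpf TPI1 had 45.8 ± 1.90 CPM in heterozygotes and 69.2 ± 0.934 CPM in wild types, an interaction of 0.76 (SE 0.11, adjusted p = 0.000761).

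Sterol synthesis genes were called for 8 of 30 tested members (26.7%), 4 in each direction, with a median of -0.16. SQLE, described above, was lower in heterozygotes at 8 mpf. PMVK, phosphomevalonate kinase, had 3.80 ± 0.429 CPM in heterozygotes and 2.92 ± 0.993 CPM in wild types at 8 mpf. At 50 dpf PMVK had 2.06 ± 0.120 CPM in heterozygotes and 5.25 ± 0.911 CPM in wild types, an interaction of 1.72 (SE 0.32, adjusted p = 0.00415). LSS, lanosterol synthase, was lower in heterozygotes at both ages, with 3.21 ± 0.221 CPM in heterozygotes and 11.2 ± 1.69 CPM in wild types at 8 mpf. At 50 dpf LSS had 3.46 ± 0.383 CPM in heterozygotes and 23.7 ± 1.26 CPM in wild types, an interaction of 0.98 (SE 0.19, adjusted p = 0.00586).

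Fatty acid synthesis and storage genes were called for 9 of 32 tested members (28.1%), 5 positive and 4 negative, with a median of 0.02. acsl1b, a long-chain acyl-CoA synthetase, had 22.7 ± 1.09 CPM in heterozygotes and 23.0 ± 2.07 CPM in wild types at 8 mpf. At 50 dpf acsl1b had 14.6 ± 0.961 CPM in heterozygotes and 30.8 ± 1.48 CPM in wild types, an interaction of 1.06 (SE 0.14, adjusted p = 0.000507). ACSL4 (ENSDARG00000004078), a synthetase that prefers arachidonate, had 56.3 ± 5.18 CPM in heterozygotes and 72.9 ± 1.99 CPM in wild types at 8 mpf. At 50 dpf ACSL4 had 65.6 ± 2.60 CPM in heterozygotes and 46.1 ± 4.19 CPM in wild types, an interaction of -0.88 (SE 0.13, adjusted p = 0.00111). ACSL1 had 5.95 ± 0.276 CPM in heterozygotes and 4.44 ± 0.124 CPM in wild types at 8 mpf. At 50 dpf ACSL1 had 8.03 ± 1.33 CPM in heterozygotes and 12.1 ± 1.54 CPM in wild types, and its interaction was 1.01 (SE 0.20, adjusted p = 0.00554). DGAT1 (ENSDARG00000054914), which makes triglycerides, had 3.20 ± 0.479 CPM in heterozygotes and 2.54 ± 0.131 CPM in wild types at 8 mpf. At 50 dpf DGAT1 had 3.70 ± 1.204 CPM in heterozygotes and 7.65 ± 0.630 CPM in wild types, an interaction of 1.37 (SE 0.30, adjusted p = 0.00928). Acyl-CoA synthetases thus differed in sign among themselves.

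Lysosomal hydrolase and cathepsin genes, which break down material taken up or recycled by the cell, were called for 10 of 44 tested members (22.7%), 2 positive and 8 negative, with a median of -0.35. dnase2, the acid nuclease of lysosomes, went against the list. It had 35.3, 34.3 and 37.7 CPM in heterozygotes against 3.503, 4.21 and 3.86 CPM in wild types at 8 mpf. At 50 dpf dnase2 had 9.14, 9.33 and 10.7 CPM in heterozygotes against 13.2, 12.2 and 13.8 CPM in wild types. Heterozygotes at 8 mpf were highest and wild types at 8 mpf lowest, while at 50 dpf heterozygotes were the lower group, an interaction of 3.64 (SE 0.16, adjusted p = 1.93e-07). PPT1, which removes palmitate from proteins, had 70.0, 68.3 and 64.2 CPM in heterozygotes against 144, 121 and 139 CPM in wild types at 8 mpf. At 50 dpf PPT1 had 80.0, 52.4 and 67.1 CPM in heterozygotes against 43.6, 42.0 and 41.4 CPM in wild types. Wild types at 8 mpf held the highest level and wild types at 50 dpf the lowest, an interaction of -1.65 (SE 0.19, adjusted p = 0.000135). ASAH1 (ENSDARG00000034817), acid ceramidase, had 4.49 ± 0.767 CPM in heterozygotes and 11.9 ± 3.06 CPM in wild types at 8 mpf. At 50 dpf ASAH1 had 5.74 ± 0.144 CPM in heterozygotes and 4.24 ± 0.131 CPM in wild types, an interaction of -1.85 (SE 0.26, adjusted p = 0.000726). GLA, alpha-galactosidase, was the second positive member, with 13.0 ± 1.19 CPM in heterozygotes and 4.63 ± 0.377 CPM in wild types at 8 mpf. At 50 dpf GLA had 9.80 ± 1.25 CPM in heterozygotes and 8.75 ± 0.217 CPM in wild types, an interaction of 1.32 (SE 0.18, adjusted p = 0.000528). Wild types at 8 mpf stood apart for 5 of the 10 called members, more than any other group.

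Genes of the TGF-beta and BMP pathways, whose oocyte ligands GDF9 and BMP15 act on follicle cells, were called for 8 of 55 tested members (14.5%), 2 positive and 6 negative, with a median of -0.05. The share called was near the 13.5% of all tested genes. ID3 and ID1, inhibitors of bHLH factors that BMP signalling induces in many cells, were among the negative ones. ID3 had 13.9, 14.2 and 13.7 CPM in heterozygotes against 48.7, 40.3 and 45.2 CPM in wild types at 8 mpf. At 50 dpf ID3 had 54.2, 50.0 and 50.1 CPM in heterozygotes against 59.3, 56.1 and 60.7 CPM in wild types. Heterozygotes at 8 mpf lay far below the other 3 groups, which ranged from 40.3 to 60.7 CPM, and the interaction was -1.50 (SE 0.13, adjusted p = 1.86e-05). ID1 had 8.87 ± 0.242 CPM in heterozygotes and 14.3 ± 1.38 CPM in wild types at 8 mpf. At 50 dpf ID1 had 32.3 ± 7.55 CPM in heterozygotes and 24.8 ± 1.63 CPM in wild types, an interaction of -1.07 (SE 0.21, adjusted p = 0.00585). BAMBI (ENSDARG00000055381), a decoy receptor that dampens the pathway, had 2.76, 2.91 and 2.51 CPM in heterozygotes against 17.9, 13.9 and 18.9 CPM in wild types at 8 mpf. At 50 dpf BAMBI had 24.6, 20.3 and 20.0 CPM in heterozygotes against 47.7, 45.4 and 46.0 CPM in wild types. BAMBI was lower in heterozygotes at both ages, by a larger ratio at 8 mpf but by more CPM at 50 dpf. Its interaction, on the log2 scale, was -1.54 (SE 0.19, adjusted p = 0.000237). BMPR1A (ENSDARG00000019728), a type I receptor, had 49.7 ± 2.65 CPM in heterozygotes and 60.9 ± 4.96 CPM in wild types at 8 mpf. At 50 dpf BMPR1A had 31.5 ± 1.16 CPM in heterozygotes and 24.9 ± 1.95 CPM in wild types, an interaction of -0.63 (SE 0.13, adjusted p = 0.00839) that was lost with library-size scaling (adjusted p = 0.0971). SMAD7, an inhibitory SMAD, and NOG (ENSDARG00000058819), the BMP antagonist noggin, were named after their values were seen. All 6 negative members are thus named and the 2 positive ones are not, so the named members do not stand for the list. SMAD7 had 0.598 ± 0.221 CPM in heterozygotes and 1.43 ± 0.242 CPM in wild types at 8 mpf. At 50 dpf SMAD7 had 1.49 ± 0.426 CPM in heterozygotes and 1.24 ± 0.104 CPM in wild types. NOG had 0.150 ± 0.0134 CPM in heterozygotes and 0.626 ± 0.0601 CPM in wild types at 8 mpf. At 50 dpf NOG had 0.540 ± 0.136 CPM in heterozygotes and 0.722 ± 0.0597 CPM in wild types. Heterozygotes at 8 mpf stood lower for ID3, BAMBI, SMAD7 and NOG, but the calls of SMAD7 and NOG missed the threshold in 9 and 14 of 21 alternative settings.

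Immediate early genes, which cells switch on within minutes of a stimulus, had 13 of 36 tested members called (36.1%), 4 positive and 9 negative, with a median of -0.08. JUNB (ENSDARG00000074378), an AP-1 subunit, had 9.31, 8.56 and 7.98 CPM in heterozygotes against 26.6, 17.7 and 18.6 CPM in wild types at 8 mpf. At 50 dpf JUNB had 27.6, 22.6 and 19.4 CPM in heterozygotes against 24.7, 24.9 and 23.6 CPM in wild types. The 50 dpf groups overlapped with wild types at 8 mpf, and heterozygotes at 8 mpf lay below them all, an interaction of -1.21 (SE 0.23, adjusted p = 0.00505). CCN2, a matricellular growth factor, had 1.85, 1.23 and 1.60 CPM in heterozygotes against 11.3, 5.39 and 4.25 CPM in wild types at 8 mpf. At 50 dpf CCN2 had 5.75, 5.25 and 4.58 CPM in heterozygotes against 4.76, 4.02 and 4.92 CPM in wild types, an interaction of -2.33 (SE 0.43, adjusted p = 0.00388). egr4, a zinc-finger factor, had 0.191 ± 0.0222 CPM in heterozygotes and 0.635 ± 0.0822 CPM in wild types at 8 mpf. At 50 dpf egr4 had 2.42 ± 0.835 CPM in heterozygotes and 1.09 ± 0.370 CPM in wild types, an interaction of -2.90 (SE 0.49, adjusted p = 0.00228). ier2a went the other way, with 4.41 ± 0.195 CPM in heterozygotes and 4.63 ± 0.399 CPM in wild types at 8 mpf. At 50 dpf ier2a had 4.81 ± 0.950 CPM in heterozygotes and 11.7 ± 0.875 CPM in wild types, an interaction of 1.22 (SE 0.21, adjusted p = 0.00249). The number of called members was 8 without replicate 1 of the 50 dpf wild types and 16 without replicate 2 of the 8 mpf wild types.

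Circadian clock genes, whose transcripts cycle with the time of day at sampling, were called for 7 of 42 tested members, 3 positive and 4 negative. This is 16.7%, near the 13.5% of all tested genes. NFIL3, a repressor in the clock's output, had 5.30 ± 0.343 CPM in heterozygotes and 9.01 ± 0.821 CPM in wild types at 8 mpf. At 50 dpf NFIL3 had 8.12 ± 1.08 CPM in heterozygotes and 5.26 ± 0.561 CPM in wild types, an interaction of -1.39 (SE 0.20, adjusted p = 0.000666). NR1D2, a nuclear receptor of the clock's second loop, had 1.70 ± 0.175 CPM in heterozygotes and 4.28 ± 0.521 CPM in wild types at 8 mpf. At 50 dpf NR1D2 had 4.09 ± 0.496 CPM in heterozygotes and 4.74 ± 0.611 CPM in wild types, an interaction of -1.12 (SE 0.23, adjusted p = 0.00674). cry5, a photolyase of the cryptochrome family, had 27.3 ± 0.883 CPM in heterozygotes and 59.13 ± 4.63 CPM in wild types at 8 mpf. At 50 dpf cry5 had 37.6 ± 3.92 CPM in heterozygotes and 53.4 ± 0.670 CPM in wild types, an interaction of -0.61 (SE 0.14, adjusted p = 0.0105). dbpb, a PAR-bZIP output factor, had 7.79 ± 0.239 CPM in heterozygotes and 9.23 ± 0.251 CPM in wild types at 8 mpf. At 50 dpf dbpb had 6.01 ± 0.612 CPM in heterozygotes and 12.2 ± 0.453 CPM in wild types, an interaction of 0.78 (SE 0.15, adjusted p = 0.00565). It missed the threshold on normalized values with limma (adjusted p up to 0.0778).

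**Figure D4:**
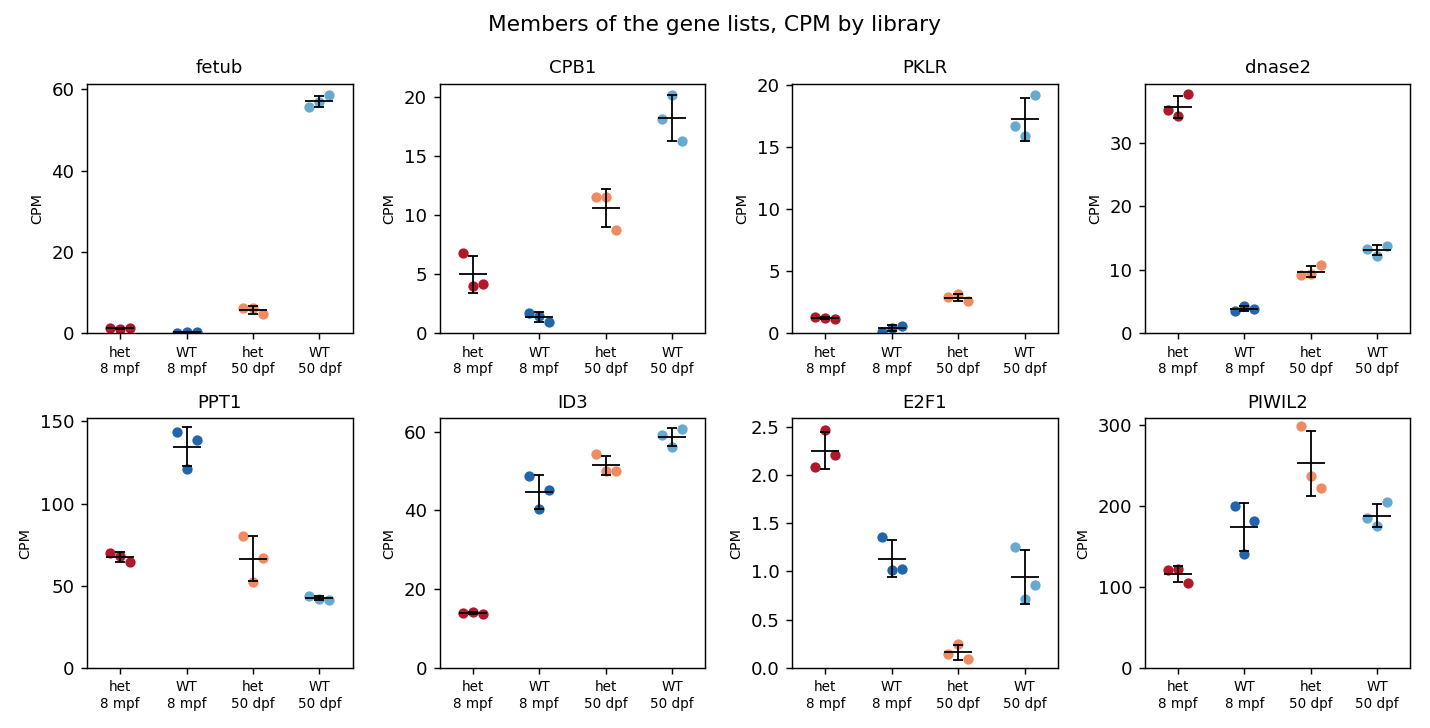
CPM by library (points), with the mean and SD over 3 libraries (bars), for 8 members of the gene lists, with heterozygotes left of wild types at each age. fetub, CPB1 and PKLR are highest in wild types at 50 dpf, dnase2 in heterozygotes at 8 mpf, and PPT1 in wild types at 8 mpf, while ID3 and PIWIL2 are lowest in heterozygotes at 8 mpf and E2F1 in heterozygotes at 50 dpf.

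Oocyte genes were called for 5 of 39 tested members (12.8%), 1 positive and 4 negative, close to the share of all genes. Their median interaction was -0.37 and 31 of 39 lay below 0, against 8941 of all 18834 tested genes. The median genotype effect of the list was 0.26 at 8 mpf and 0.39 at 50 dpf. cpeb1a, which holds stored maternal mRNA silent until maturation, had 1.49, 0.861 and 1.39 CPM in heterozygotes against 4.39, 3.09 and 4.15 CPM in wild types at 8 mpf. At 50 dpf cpeb1a had 10.6, 9.79 and 8.401 CPM in heterozygotes against 9.35, 8.996 and 10.7 CPM in wild types. The 50 dpf groups overlapped, and heterozygotes at 8 mpf lay below wild types without overlap, an interaction of -1.60 (SE 0.28, adjusted p = 0.00248). PIWIL2, a piRNA-binding Argonaute that silences transposons in the germ line, had 121, 122 and 104 CPM in heterozygotes against 199.9, 141 and 182 CPM in wild types at 8 mpf. At 50 dpf PIWIL2 had 299, 238 and 222 CPM in heterozygotes against 185, 176 and 204 CPM in wild types. Heterozygotes were lower at 8 mpf and higher at 50 dpf, an interaction of -1.02 (SE 0.20, adjusted p = 0.00576).

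Meiotic chromosome genes were called for 6 of 24 tested members (25%), 3 in each direction, with a median of 0.31. rnf212, a factor that stabilises crossover sites, had 3.49, 3.21 and 3.65 CPM in heterozygotes against 1.54, 1.78 and 1.71 CPM in wild types at 8 mpf. At 50 dpf rnf212 had 2.87, 2.01 and 2.23 CPM in heterozygotes against 3.999, 4.92 and 4.25 CPM in wild types. Heterozygotes were higher at 8 mpf and lower at 50 dpf without overlap, an interaction of 1.92 (SE 0.23, adjusted p = 0.000233). MSH4, a partner in crossover formation, had 0.937 ± 0.0546 CPM in heterozygotes and 0.729 ± 0.224 CPM in wild types at 8 mpf. At 50 dpf MSH4 had 1.88 ± 0.562 CPM in heterozygotes and 0.0922 ± 0.0267 CPM in wild types, with wild types at 50 dpf the lowest group, an interaction of -4.02 (SE 0.50, adjusted p = 0.000267). TRIP13, an ATPase of the meiotic axis and the spindle checkpoint, had 57.2 ± 1.29 CPM in heterozygotes and 30.6 ± 3.61 CPM in wild types at 8 mpf. At 50 dpf TRIP13 had 72.2 ± 10.45 CPM in heterozygotes and 64.6 ± 2.15 CPM in wild types, an interaction of 0.74 (SE 0.16, adjusted p = 0.00935). TEX11 had low levels, 0.476 ± 0.174 CPM in heterozygotes and 0.0567 ± 0.0609 CPM in wild types at 8 mpf. At 50 dpf TEX11 had 0.284 ± 0.1001 CPM in heterozygotes and 0.864 ± 0.410 CPM in wild types, an interaction of 4.60 (SE 0.95, adjusted p = 0.00739).

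DNA damage repair genes were called for 4 of 40 tested members (10%, against 13.5% of all tested genes), each negative. The list had a median of -0.11 that turned positive with library-size scaling. FANCL, the ubiquitin ligase of the Fanconi anaemia pathway, had 36.2, 40.8 and 42.4 CPM in heterozygotes against 13.2, 13.1 and 13.7 CPM in wild types at 8 mpf. At 50 dpf FANCL had 45.6, 41.5 and 41.6 CPM in heterozygotes against 6.47, 4.68 and 4.86 CPM in wild types. Heterozygotes held about the same level at both ages and were higher than wild types at both, by more at 50 dpf, an interaction of -1.42 (SE 0.18, adjusted p = 0.00027). XRCC5, the Ku80 subunit of end joining, had 85.8 ± 2.98 CPM in heterozygotes and 109 ± 6.69 CPM in wild types at 8 mpf. At 50 dpf XRCC5 had 90.1 ± 5.82 CPM in heterozygotes and 68.6 ± 1.81 CPM in wild types, an interaction of -0.74 (SE 0.12, adjusted p = 0.00132). ATR, the kinase that answers stalled replication, had 71.7 ± 4.44 CPM in heterozygotes and 85.4 ± 10.4 CPM in wild types at 8 mpf. At 50 dpf ATR had 43.7 ± 1.80 CPM in heterozygotes and 31.1 ± 4.37 CPM in wild types, an interaction of -0.74 (SE 0.17, adjusted p = 0.0117). RAD51B had 37.1 ± 0.903 CPM in heterozygotes and 26.8 ± 4.52 CPM in wild types at 8 mpf. At 50 dpf RAD51B had 28.6 ± 2.71 CPM in heterozygotes and 13.5 ± 0.403 CPM in wild types, an interaction of -0.62 (SE 0.18, adjusted p = 0.0353) that was lost in 12 of 21 alternative settings.

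Cell cycle genes, where p21 acts, were called for 6 of 39 tested members (15.4%, near the 13.5% of all tested genes). Of these 5 were positive and 1 negative, and the list had a median of -0.06. E2F1, the transcription factor that opens S phase, had 2.08, 2.47 and 2.21 CPM in heterozygotes against 1.36, 1.02 and 1.02 CPM in wild types at 8 mpf. At 50 dpf E2F1 had 0.139, 0.246 and 0.0916 CPM in heterozygotes against 1.25, 0.715 and 0.862 CPM in wild types. Heterozygotes were higher at 8 mpf and lower at 50 dpf without overlap at either age, an interaction of 3.58 (SE 0.46, adjusted p = 0.000347). CCNE2, the cyclin that drives entry into S phase, had 1.85, 1.49 and 2.29 CPM in heterozygotes against 4.19, 5.48 and 5.17 CPM in wild types at 8 mpf. At 50 dpf CCNE2 had 1.87, 2.46 and 2.23 CPM in heterozygotes against 17.5, 18.0 and 17.0 CPM in wild types, and it was lower in heterozygotes at both ages, by more at 50 dpf, an interaction of 1.61 (SE 0.24, adjusted p = 0.001). MCM6 (ENSDARG00000033231), a subunit of the replicative helicase, had 439 ± 20.7 CPM in heterozygotes and 360.2 ± 12.2 CPM in wild types at 8 mpf. At 50 dpf MCM6 had 442 ± 11.6 CPM in heterozygotes and 238 ± 3.64 CPM in wild types, an interaction of -0.61 (SE 0.11, adjusted p = 0.00316). CCND1, a G1 cyclin, had 6.32 ± 0.390 CPM in heterozygotes and 19.8 ± 1.16 CPM in wild types at 8 mpf. At 50 dpf CCND1 had 1.25 ± 0.350 CPM in heterozygotes and 7.43 ± 0.310 CPM in wild types, an interaction of 0.92 (SE 0.23, adjusted p = 0.0192). CCND1 was lower in heterozygotes at both ages, by a larger ratio at 50 dpf but by more CPM at 8 mpf, so its sign depends on the scale. The call was lost without replicate 2 of the 50 dpf wild types (adjusted p = 0.0523) and with limma (adjusted p up to 0.187).

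Of the 28 tested p53 target genes, 2 (7.14%, against 13.5% of all tested genes) had an interaction, cdkn1a itself and mdm2, the ligase that degrades p53. mdm2 had 36.0 ± 1.47 CPM in heterozygotes and 30.9 ± 1.59 CPM in wild types at 8 mpf. At 50 dpf mdm2 had 30.8 ± 1.42 CPM in heterozygotes and 35.2 ± 1.31 CPM in wild types, an interaction of 0.41 (SE 0.12, adjusted p = 0.0408) that was lost in 13 of 21 alternative settings. Apoptosis genes were called for 5 of 33 tested members (15.2%, near the 13.5% of all tested genes), each positive. BOK (ENSDARG00000052129), a pore-forming BCL2-family effector, had 5.36, 5.49 and 5.71 CPM in heterozygotes against 6.70, 5.74 and 7.02 CPM in wild types at 8 mpf. At 50 dpf BOK had 4.22, 4.08 and 3.97 CPM in heterozygotes against 9.001, 9.20 and 9.87 CPM in wild types. Wild types at 50 dpf were highest and heterozygotes at 50 dpf lowest, an interaction of 0.96 (SE 0.17, adjusted p = 0.00244). The more abundant BOK (ENSDARG00000008807) had 102 ± 6.21 CPM in heterozygotes and 99.6 ± 17.1 CPM in wild types at 8 mpf. At 50 dpf that copy had 166 ± 36.5 CPM in heterozygotes and 142 ± 8.41 CPM in wild types, with no called interaction (-0.19, SE 0.22, adjusted p = 0.616). CASP6, an executioner caspase, had 0.529 ± 0.195 CPM in heterozygotes and 1.67 ± 0.142 CPM in wild types at 8 mpf. At 50 dpf CASP6 had 0.0818 ± 0.0887 CPM in heterozygotes and 4.84 ± 0.594 CPM in wild types, an interaction of 4.21 (SE 0.64, adjusted p = 0.00111). cycsb, a cytochrome c gene, and CASP2 had interactions of 0.37 (SE 0.11) and 0.47 (SE 0.14). The calls of CASP6, cycsb and CASP2 were lost in 1, 12 and 16 of 21 alternative settings.

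Eicosanoid genes, which make prostaglandins and leukotrienes, were called for 6 of 23 tested members (26.1%), 1 positive and 5 negative, with a median of -0.41. alox5b.3, a 5-lipoxygenase gene, had 36.0, 33.0 and 42.8 CPM in heterozygotes against 0.0405, 0 and 0 CPM in wild types at 8 mpf. At 50 dpf alox5b.3 had 202, 201 and 202 CPM in heterozygotes against 4.33, 5.75 and 6.05 CPM in wild types. Heterozygotes were far above wild types at both ages, and wild types at 8 mpf had 2 counts in all, with an adjusted p of 1.36e-05 for the interaction. alox5b.3 was the 1 positive member by ratio, but in CPM the excess of heterozygotes was larger at 50 dpf. ptgs1, a cyclooxygenase, had 13.2 ± 2.004 CPM in heterozygotes and 11.2 ± 0.601 CPM in wild types at 8 mpf. At 50 dpf ptgs1 had 9.77 ± 0.445 CPM in heterozygotes and 3.78 ± 0.441 CPM in wild types, an interaction of -1.14 (SE 0.19, adjusted p = 0.00215). PTGS2 (ENSDARG00000004539), the inducible cyclooxygenase linked to ovulation, had 0.364, 0.0931 and 0.562 CPM in heterozygotes against 5.93, 4.01 and 3.18 CPM in wild types at 8 mpf. At 50 dpf PTGS2 had 0.658, 0.845 and 0.794 CPM in heterozygotes against 1.25, 0.983 and 1.25 CPM in wild types, an interaction of -2.97 (SE 0.58, adjusted p = 0.00522). The other PTGS2 (ENSDARG00000010276) was higher in heterozygotes at both ages, with no called interaction (-0.30, SE 0.28, adjusted p = 0.514). That copy had 3.80 ± 0.182 CPM in heterozygotes and 2.27 ± 0.525 CPM in wild types at 8 mpf, and 4.08 ± 0.633 and 1.99 ± 0.297 CPM at 50 dpf. ptgdsb.1, of the lipocalin-type prostaglandin D synthases, had 0.985 ± 0.117 CPM in heterozygotes and 6.42 ± 0.0375 CPM in wild types at 8 mpf. At 50 dpf ptgdsb.1 had 6.48 ± 1.17 CPM in heterozygotes and 19.6 ± 0.627 CPM in wild types, an interaction of -1.11 (SE 0.20, adjusted p = 0.00332). ptgdsb.1 was lower in heterozygotes at both ages, by a larger ratio at 8 mpf but by more CPM at 50 dpf.

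Of 42 tested genes of follicle somatic cells and steroid synthesis 12 were called (28.6%), 8 positive and 4 negative, with a median of 0.15. hsd17b1, which makes estradiol from estrone, had 0.463, 0.814 and 0.531 CPM in heterozygotes against 0.263, 0.429 and 0.432 CPM in wild types at 8 mpf. At 50 dpf hsd17b1 had 0.554, 1.44 and 1.25 CPM in heterozygotes against 4.49, 4.71 and 3.76 CPM in wild types. Wild types at 50 dpf stood apart, an interaction of 2.63 (SE 0.48, adjusted p = 0.00339). SOX9, a factor of supporting cells in the gonad, is the symbol of 2 genes. ENSDARG00000043923 had 18.9 ± 1.90 CPM in heterozygotes and 27.19 ± 4.81 CPM in wild types at 8 mpf. At 50 dpf ENSDARG00000043923 had 3.36 ± 0.419 CPM in heterozygotes and 1.85 ± 0.183 CPM in wild types, an interaction of -1.38 (SE 0.23, adjusted p = 0.00174). ENSDARG00000003293, also SOX9, had 0.0139 ± 0.0241 CPM in heterozygotes and 0.674 ± 0.138 CPM in wild types at 8 mpf. At 50 dpf ENSDARG00000003293 had 0.607 ± 0.649 CPM in heterozygotes and 0.347 ± 0.157 CPM in wild types, with an adjusted p of 0.0092 for the interaction. ESR2 (ENSDARG00000016454), an estrogen receptor, had 4.66 ± 0.495 CPM in heterozygotes and 8.04 ± 0.707 CPM in wild types at 8 mpf. At 50 dpf ESR2 had 19.1 ± 0.997 CPM in heterozygotes and 20.4 ± 0.913 CPM in wild types, an interaction of -0.68 (SE 0.16, adjusted p = 0.015). The call was lost without replicate 2 of the 50 dpf wild types (adjusted p = 0.0527). Without that library 4 members of the list were called. A summed level of 7 markers of these cells was 3.75 to 4.07 CPM in heterozygotes and 5.08 to 6.86 CPM in wild types at 8 mpf, and 18.2 to 21.4 CPM in heterozygotes and 47.7 to 55.4 CPM in wild types at 50 dpf, and its part in the list's calls was not tested.

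Leukocyte markers were called for 8 of 29 tested members (27.6%), 4 in each direction, with a median of -0.44 (-0.81 with 4 members set at the floor). MMP9, a matrix protease of neutrophils and macrophages, had 20.9, 21.6 and 22.1 CPM in heterozygotes against 57.3, 39.4 and 45.8 CPM in wild types at 8 mpf. At 50 dpf MMP9 had 32.8, 27.0 and 22.1 CPM in heterozygotes against 20.6, 21.4 and 21.5 CPM in wild types. The highest group was wild types at 8 mpf, an interaction of -1.51 (SE 0.21, adjusted p = 0.000677). CXCR4 (ENSDARG00000041959), a chemokine receptor, had 1.95 ± 1.03 CPM in heterozygotes and 8.83 ± 1.57 CPM in wild types at 8 mpf. At 50 dpf CXCR4 had 1.61 ± 0.503 CPM in heterozygotes and 1.31 ± 0.206 CPM in wild types, an interaction of -2.44 (SE 0.48, adjusted p = 0.00547). The other CXCR4 (ENSDARG00000057633) was lower in heterozygotes at both ages, with no called interaction (-0.44, SE 0.21, adjusted p = 0.198). That copy had 1.041 to 1.323 CPM in heterozygotes and 9.409 to 12.39 CPM in wild types at 8 mpf. At 50 dpf it had 3.055 to 3.274 CPM in heterozygotes and 18.05 to 22.99 CPM in wild types. PAX5, the B-cell factor, had 0.898 ± 0.282 CPM in heterozygotes and 1.33 ± 0.0273 CPM in wild types at 8 mpf. At 50 dpf PAX5 had 0.639 ± 0.188 CPM in heterozygotes and 5.54 ± 0.428 CPM in wild types, an interaction of 2.55 (SE 0.36, adjusted p = 0.000695). lgals2a, a galectin gene, had 3.85 ± 0.546 CPM in heterozygotes and 5.49 ± 1.14 CPM in wild types at 8 mpf. At 50 dpf lgals2a had 3.28 ± 0.674 CPM in heterozygotes and 1.61 ± 0.165 CPM in wild types, an interaction of -1.55 (SE 0.29, adjusted p = 0.00422). 6 defining leukocyte markers summed to 9.35 to 14.9 CPM in heterozygotes and 20.8 to 28.8 CPM in wild types at 8 mpf, and to 9.01 to 10.3 CPM in heterozygotes and 17.3 to 18.6 CPM in wild types at 50 dpf. The sum was lower in heterozygotes at both ages without overlap.

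Extracellular matrix and stromal genes were called for 9 of 35 tested members (25.7%), 3 positive and 6 negative, with a median of -0.41. COL1A1, a chain of type I collagen, had 1.14, 0.745 and 1.60 CPM in heterozygotes against 4.05, 3.29 and 2.51 CPM in wild types at 8 mpf. At 50 dpf COL1A1 had 6.27, 7.11 and 5.62 CPM in heterozygotes against 5.35, 5.36 and 4.31 CPM in wild types. Heterozygotes at 8 mpf stood below the rest, an interaction of -1.80 (SE 0.35, adjusted p = 0.0048). COL1A2, its partner chain, named after its values were seen, had 0.960 ± 0.254 CPM in heterozygotes and 3.22 ± 0.987 CPM in wild types at 8 mpf. At 50 dpf COL1A2 had 2.75 ± 0.625 CPM in heterozygotes and 2.51 ± 1.02 CPM in wild types, an interaction of -1.85 (SE 0.47, adjusted p = 0.0208) that missed the threshold in 3 of 21 alternative settings. THBS1, a matricellular glycoprotein, had 0.345 ± 0.0453 CPM in heterozygotes and 4.23 ± 1.14 CPM in wild types at 8 mpf. At 50 dpf THBS1 had 0.743 ± 0.230 CPM in heterozygotes and 1.61 ± 0.291 CPM in wild types, an interaction of -2.50 (SE 0.40, adjusted p = 0.00161). PDGFRA, a receptor of stromal cells, had 4.42 ± 0.481 CPM in heterozygotes and 4.59 ± 0.247 CPM in wild types at 8 mpf. At 50 dpf PDGFRA had 2.88 ± 0.567 CPM in heterozygotes and 6.07 ± 0.558 CPM in wild types, an interaction of 1.01 (SE 0.22, adjusted p = 0.0103). BGN (ENSDARG00000002945), a small proteoglycan, had 6.70 ± 0.297 CPM in heterozygotes and 4.80 ± 0.127 CPM in wild types at 8 mpf. At 50 dpf BGN had 7.86 ± 1.302 CPM in heterozygotes and 9.73 ± 0.273 CPM in wild types, an interaction of 0.79 (SE 0.18, adjusted p = 0.012).

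Endothelial genes were called for 4 of 24 tested members (16.7%, near the 13.5% of all tested genes), 2 in each direction. FLT4 is described above, and kdrl, a VEGF receptor of blood vessels, had 8.00, 8.17 and 8.77 CPM in heterozygotes against 3.52, 3.80 and 3.11 CPM in wild types at 8 mpf. At 50 dpf kdrl had 2.04, 1.97 and 2.44 CPM in heterozygotes against 2.71, 1.97 and 2.16 CPM in wild types. Heterozygotes at 8 mpf were highest and the 50 dpf groups overlapped, an interaction of 1.34 (SE 0.22, adjusted p = 0.00178). cdh5, the cadherin of endothelial junctions, had 0.626 ± 0.169 CPM in heterozygotes and 0.329 ± 0.229 CPM in wild types at 8 mpf. At 50 dpf cdh5 had 0.591 ± 0.250 CPM in heterozygotes and 3.13 ± 0.747 CPM in wild types, an interaction of 3.30 (SE 0.64, adjusted p = 0.00514). vwf, a clotting glycoprotein, had 2.30 ± 0.225 CPM in heterozygotes and 1.73 ± 0.128 CPM in wild types at 8 mpf. At 50 dpf vwf had 3.51 ± 0.0591 CPM in heterozygotes and 0.890 ± 0.288 CPM in wild types, an interaction of -1.54 (SE 0.30, adjusted p = 0.0048). It missed the threshold with limma (adjusted p up to 0.454). Cell junction and keratin genes were called for 9 of 47 tested members (19.1%, against 13.5% of all tested genes), 3 positive and 6 negative. epcam, an adhesion molecule that was by far the most abundant of those named, had 1023 ± 65.1 CPM in heterozygotes and 726 ± 100.4 CPM in wild types at 8 mpf. At 50 dpf epcam had 1534 ± 360.2 CPM in heterozygotes and 2205 ± 179 CPM in wild types, an interaction of 1.02 (SE 0.22, adjusted p = 0.00985). krt8, a keratin of simple epithelia, had 25.4 ± 3.95 CPM in heterozygotes and 49.3 ± 10.8 CPM in wild types at 8 mpf. At 50 dpf krt8 had 45.4 ± 5.57 CPM in heterozygotes and 38.1 ± 1.90 CPM in wild types, an interaction of -1.21 (SE 0.23, adjusted p = 0.00461). JUP (ENSDARG00000059067), the junction protein plakoglobin, had 0.306 ± 0.0770 CPM in heterozygotes and 1.17 ± 0.206 CPM in wild types at 8 mpf. At 50 dpf JUP had 1.42 ± 0.580 CPM in heterozygotes and 1.11 ± 0.246 CPM in wild types, an interaction of -2.26 (SE 0.47, adjusted p = 0.00777).

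Cytosolic chaperone and heat shock genes were called for 6 of 32 tested members (18.8%, against 13.5% of all tested genes), 4 positive and 2 negative. CHORDC1 (ENSDARG00000003973), a co-chaperone of HSP90, had 28.7, 27.4 and 33.0 CPM in heterozygotes against 7.88, 11.3 and 7.78 CPM in wild types at 8 mpf. At 50 dpf CHORDC1 had 15.5, 16.6 and 16.9 CPM in heterozygotes against 14.7, 14.4 and 13.8 CPM in wild types. The genotype effect was 1.72 at 8 mpf and 0.19 at 50 dpf, an interaction of 1.53 (SE 0.20, adjusted p = 0.00045). HSPA8 (ENSDARG00000037403), a constitutive HSP70, had 0.769 ± 0.122 CPM in heterozygotes and 4.62 ± 0.646 CPM in wild types at 8 mpf. At 50 dpf HSPA8 had 2.85 ± 0.270 CPM in heterozygotes and 6.26 ± 0.472 CPM in wild types, an interaction of -1.42 (SE 0.23, adjusted p = 0.00171). hspa1b, an HSP70 gene, had 4.54 ± 0.321 CPM in heterozygotes and 4.72 ± 0.538 CPM in wild types at 8 mpf. At 50 dpf hspa1b had 3.21 ± 0.426 CPM in heterozygotes and 6.65 ± 0.789 CPM in wild types, an interaction of 0.99 (SE 0.21, adjusted p = 0.00895). DNAJA2 (ENSDARG00000010745), an HSP40 co-chaperone, had 54.2 ± 4.97 CPM in heterozygotes and 60.6 ± 8.81 CPM in wild types at 8 mpf. At 50 dpf DNAJA2 had 34.1 ± 4.79 CPM in heterozygotes and 65.0 ± 2.02 CPM in wild types, an interaction of 0.77 (SE 0.18, adjusted p = 0.0131). Amino acid transport and ATF4 stress genes were called for 4 of 34 tested members (11.8%, near the 13.5% of all tested genes), 2 in each direction. atf4b, the transcription factor of the amino acid response, had 42.9 ± 3.91 CPM in heterozygotes and 47.1 ± 4.07 CPM in wild types at 8 mpf. At 50 dpf atf4b had 27.6 ± 3.16 CPM in heterozygotes and 53.4 ± 0.392 CPM in wild types, an interaction of 0.82 (SE 0.15, adjusted p = 0.00415). SLC7A3 (ENSDARG00000061566), a cationic amino acid carrier, had 0.505 ± 0.159 CPM in heterozygotes and 0.690 ± 0.0520 CPM in wild types at 8 mpf. At 50 dpf SLC7A3 had 0.640 ± 0.228 CPM in heterozygotes and 4.70 ± 0.251 CPM in wild types, an interaction of 2.38 (SE 0.41, adjusted p = 0.00235). SLC1A4, a carrier of small neutral amino acids, and slc3a2a, a heavy chain of amino acid transporters, had interactions of -1.22 (SE 0.23, adjusted p = 0.00415) and -0.78 (SE 0.16, adjusted p = 0.00642).

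Neuronal excitability genes were called for 7 of 43 tested members (16.3%, near the 13.5% of all tested genes), 4 positive and 3 negative. ADCY8, an adenylyl cyclase that calcium stimulates, had 3.82, 4.26 and 3.40 CPM in heterozygotes against 35.4, 26.1 and 32.8 CPM in wild types at 8 mpf. At 50 dpf ADCY8 had 3.46, 2.85 and 2.78 CPM in heterozygotes against 56.0, 56.1 and 53.05 CPM in wild types. Heterozygotes were lower at both ages, with effects of -3.04 at 8 mpf and -4.18 at 50 dpf, an interaction of 1.14 (SE 0.20, adjusted p = 0.00235). kcnq1.1, a potassium channel gene, had 1.85 ± 0.538 CPM in heterozygotes and 2.01 ± 0.684 CPM in wild types at 8 mpf. At 50 dpf kcnq1.1 had 0.671 ± 0.293 CPM in heterozygotes and 3.51 ± 0.639 CPM in wild types, an interaction of 2.28 (SE 0.49, adjusted p = 0.00895). GRIA2 (ENSDARG00000070173), a glutamate receptor subunit, had 0.631 ± 0.213 CPM in heterozygotes and 0 counts in wild types at 8 mpf, at least 12.7-fold higher against the floor, and 1.06 ± 0.0796 CPM in heterozygotes and 0.231 ± 0.0304 CPM in wild types at 50 dpf (adjusted p for the interaction 0.00312). Skeletal muscle and sarcomere genes were called for 4 of 32 tested members (12.5%, near the 13.5% of all tested genes), 1 positive and 3 negative. RYR1 (ENSDARG00000023797), the calcium release channel of muscle, had 14.7 ± 1.24 CPM in heterozygotes and 22.6 ± 2.35 CPM in wild types at 8 mpf. At 50 dpf RYR1 had 34.0 ± 0.872 CPM in heterozygotes and 19.9 ± 0.793 CPM in wild types, an interaction of -1.39 (SE 0.15, adjusted p = 9.34e-05). ckma, a muscle creatine kinase, had 1.28 ± 0.143 CPM in heterozygotes and 1.70 ± 0.0792 CPM in wild types at 8 mpf. At 50 dpf ckma had 1.95 ± 0.390 CPM in heterozygotes and 0.845 ± 0.191 CPM in wild types, an interaction of -1.59 (SE 0.32, adjusted p = 0.00596). TNNT3 (ENSDARG00000030270), a troponin, had an interaction of -2.01 (SE 0.56, adjusted p = 0.033) that was lost in 9 of 21 alternative settings.

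Ribosomal, mitochondrial, ER, proteasome and insulin pathway lists had smaller shares of calls than all tested genes. None of 79 cytosolic ribosomal protein genes had an interaction by edgeR or by DESeq2, and 4 had an unadjusted p under 0.05, 1 positive and 3 negative, against 5312 of all 18834 tested genes. Their median genotype effect was 0.30 at 8 mpf and 0.52 at 50 dpf. Of the 79, 70 had an interaction below 0, with a median of -0.20, against 8941 of all 18834 tested genes below 0. Oxidative phosphorylation genes had 1 call among 53 (1.89%), uqcrc2a of complex III, with 67.8 ± 3.35 CPM in heterozygotes and 88.0 ± 16.1 CPM in wild types at 8 mpf. At 50 dpf uqcrc2a had 97.4 ± 8.78 CPM in heterozygotes and 81.2 ± 5.28 CPM in wild types and an interaction of -0.64 (SE 0.18, adjusted p = 0.0338). ER folding and translocation genes had 2 of 39 (5.13%), with a median genotype effect of 0.49 at 8 mpf and 0.39 at 50 dpf. The 2 were dnajc3b, a chaperone regulator with an interaction of 0.69 (SE 0.17, adjusted p = 0.0186), and DNAJB9 (ENSDARG00000052072), with 0.782 ± 0.160 CPM in heterozygotes and 0.142 ± 0.135 CPM in wild types at 8 mpf, and 0 counts in heterozygotes and 0.360 ± 0.129 CPM in wild types at 50 dpf (adjusted p for the interaction 0.007). Proteasome subunit genes had 3 of 43 (6.98%), and these were PSME1, PSMB10 and PSMB9, a regulator and catalytic subunits of the immunoproteasome that interferon induces. PSMB9 had 0.595, 0.302 and 0.427 CPM in heterozygotes against 2.19, 1.69 and 1.82 CPM in wild types at 8 mpf. At 50 dpf PSMB9 had 1.07, 1.303 and 1.53 CPM in heterozygotes against 12.5, 10.6 and 11.6 CPM in wild types, an interaction of 1.07 (SE 0.30, adjusted p = 0.0345). PSME1 and PSMB10 had interactions of 2.74 (SE 0.74, adjusted p = 0.028) and 0.79 (SE 0.22, adjusted p = 0.0292). Insulin and IGF pathway genes had 2 of 49 (4.08%), IRS2 (ENSDARG00000075282) with an interaction of -1.80 (SE 0.49, adjusted p = 0.0294) and rheb with -0.65 (SE 0.19, adjusted p = 0.0439). Among 15 erythrocyte markers 1 was called (6.67%), ca2, a carbonic anhydrase under 1 CPM in every library. Each of these single calls was lost in 8 to 13 of 21 alternative settings, except dnajc3b, lost in 2, and DNAJB9, lost in 0.

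**Figure D5:**
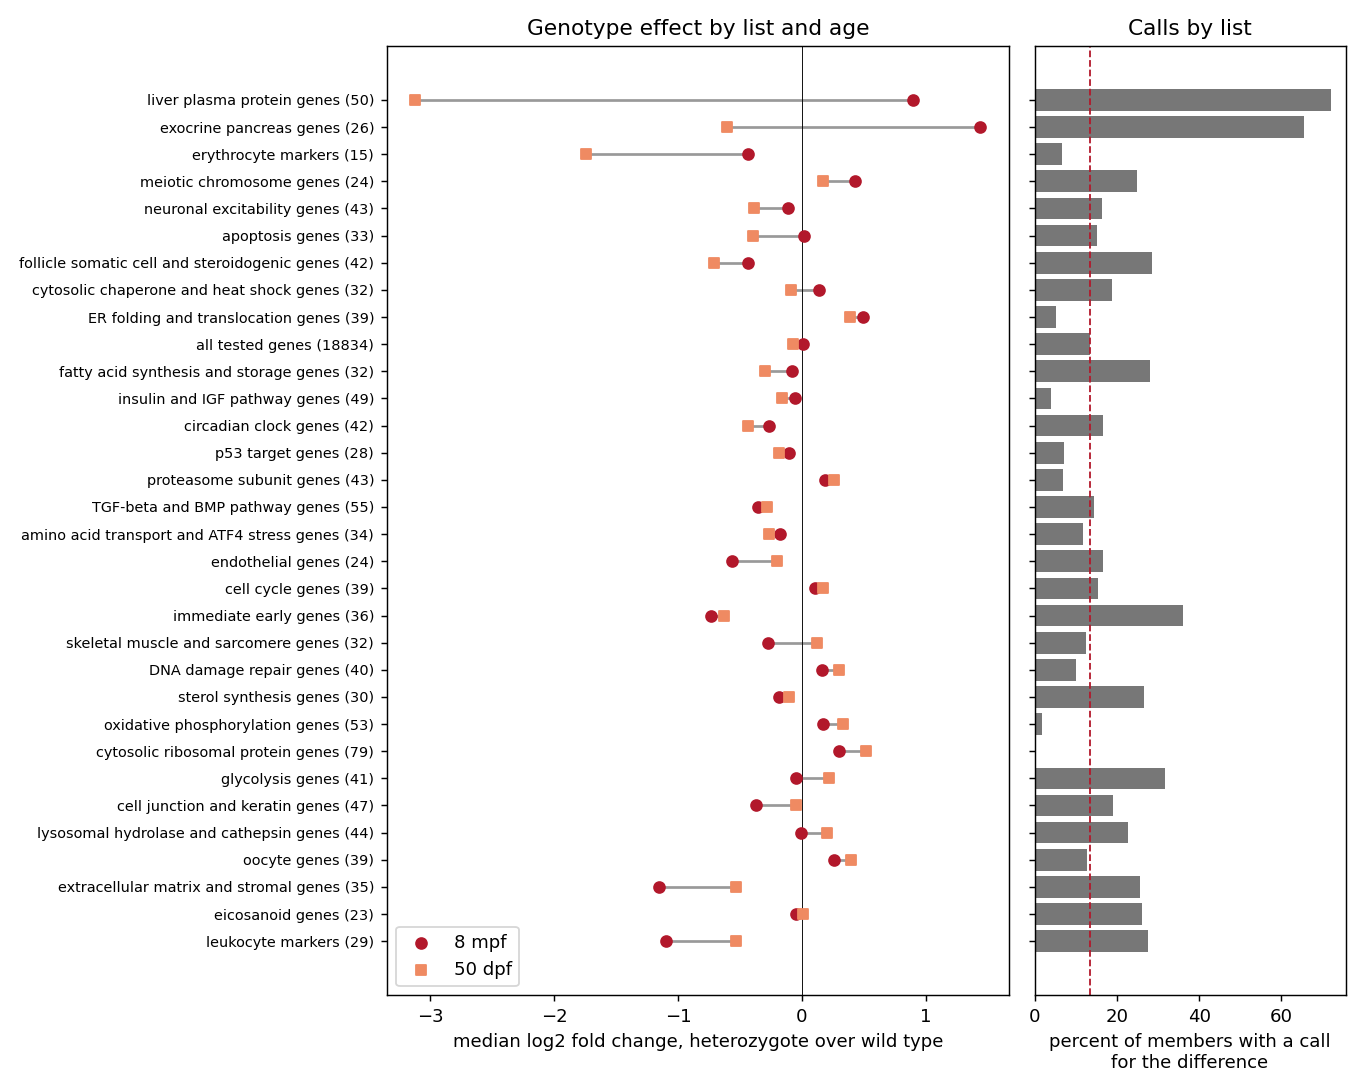
Median genotype effect (log2 ratio of heterozygotes to wild types) at 8 mpf (circles) and 50 dpf (squares) of 31 gene lists and of all tested genes, with the number of tested members in parentheses and, at right, the percent of members with a called interaction; the dashed line is the 13.5% of all genes. Liver and pancreas lists change sign between the ages, at 0.90 and 1.44 at 8 mpf against -3.12 and -0.60 at 50 dpf, with TMM scaling.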

How the data were processed

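RNA of follicles was extracted with TRIzol and made into directional libraries, per the labels' protocols. The deposited table of estimated counts per gene holds whole numbers for 32057 gene IDs (28988 with a symbol, 26339 with a count), and a second deposited table holds signal values scaled by the authors. That the counts are estimated was read from the values and from StringTie being named. The submitters' processing notes name bcl2fastq, FastQC 0.11.5, HISAT2, StringTie, DESeq2 and the build GRCz11, without role or order, and the counting options are not given in the sources used here.

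The counts were used as deposited. Genes were kept by filterByExpr (18834), scaled by TMM and fitted over all 12 libraries with edgeR 4.0.16 in R 4.3.3 (glmQLFit, glmQLFTest), with 1 coefficient per group; the interaction and both genotype effects were contrasts, called at a Benjamini-Hochberg adjusted p under 0.05. Alternatives used DESeq2 1.42.0 and limma 3.58.1, the second on log2 of the deposited signal with pseudocounts of 1 and 0.1. The test was also run on counts simulated with mean levels and spreads taken from these libraries. Replicates differed by more than sampling noise and were all kept. The difference between the counts of 2 replicates was measured by chi-square per degree of freedom. Replicate 2 of the 8 mpf wild types had 82.8 and 59.8 against replicates 1 and 3, which had 14.6 between them. Replicate 1 of the 50 dpf heterozygotes had 57.7 and 78.9 against replicates 2 and 3, which had 15.1 between them. These 2 libraries thus departed most from their groups.

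Named genes were cdkn1a, the 3 with the smallest p per pattern of 1 group standing apart (absolute log2 interaction and gap of at least 1, 5 CPM or more on average in the highest group, no overlap with the other 9 libraries, no clone name), the 3 leading genes of opposite effects and up to 4 called members per list by p; 13 others were chosen after their values were seen. The gene lists and the comparison were chosen with earlier results of these data known. Depth limits genes with few counts, and intervals were not computed for them. Symbols shared by several genes are given with their ID, and reads that such copies share may have been split between them. Second copies given beside BOK, PTGS2 and CXCR4 are not counted among the named genes. Figures were drawn with matplotlib 3.10.9 in Python 3.11.15. No genome sequence was used. A few genes and the results that need them are not reported here.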

Additional observations from a re-analysis of the deposited data

Results flagged for a closer look

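The genotype effect differed between 8 mpf and 50 dpf, by edgeR's quasi-likelihood test of the difference itself at an adjusted p under 0.05, for 2548 genes, and it is this difference between the ages that singled out each gene below. Values are the log2 interaction, the genotype effect at 8 mpf minus that at 50 dpf.

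Among DNA damage repair genes it was -1.42 for FANCL, -0.62 for RAD51B, -0.74 for ATR and -0.74 for XRCC5. Among ER folding and translocation genes it was 0.69 for dnajc3b. Among TGF-beta and BMP pathway genes it was -0.63 for BMPR1A (ENSDARG00000019728), -1.07 for ID1, -1.50 for ID3, -1.54 for BAMBI (ENSDARG00000055381), -1.55 for SMAD7 and -1.62 for NOG (ENSDARG00000058819). Among amino acid transport and ATF4 stress genes it was -1.22 for SLC1A4, -0.78 for slc3a2a, 0.82 for atf4b and 2.38 for SLC7A3 (ENSDARG00000061566). Among apoptosis genes it was 0.37 for cycsb, 0.96 for BOK (ENSDARG00000052129), 4.21 for CASP6 and 0.47 for CASP2. Among cell cycle genes it was -0.61 for MCM6 (ENSDARG00000033231), 1.61 for CCNE2, 0.92 for CCND1 and 3.58 for E2F1. Among cell junction and keratin genes it was 1.02 for epcam, -1.21 for krt8 and -2.26 for JUP (ENSDARG00000059067). Among circadian clock genes it was -1.12 for NR1D2, -0.61 for cry5, -1.39 for NFIL3 and 0.78 for dbpb. Among cytosolic chaperone and heat shock genes it was 1.53 for CHORDC1 (ENSDARG00000003973), 0.77 for DNAJA2 (ENSDARG00000010745), -1.42 for HSPA8 (ENSDARG00000037403) and 0.99 for hspa1b. Among eicosanoid genes it was -2.97 for PTGS2 (ENSDARG00000004539), -1.11 for ptgdsb.1 and -1.14 for ptgs1. Among endothelial genes it was 3.30 for cdh5, -1.54 for vwf, -3.03 for FLT4 and 1.34 for kdrl. Among exocrine pancreas genes it was 3.77 for amy2a, 2.80 for CEL (ENSDARG00000029822), 2.69 for CPB1 and -0.55 for amy2al1. Among extracellular matrix and stromal genes it was 0.79 for BGN (ENSDARG00000002945), -2.50 for THBS1, -1.80 for COL1A1, 1.01 for PDGFRA and -1.85 for COL1A2. Among fatty acid synthesis and storage genes it was 1.06 for acsl1b, -0.88 for ACSL4 (ENSDARG00000004078), 1.01 for ACSL1 and 1.37 for DGAT1 (ENSDARG00000054914). Among follicle somatic cell and steroidogenic genes it was -0.68 for ESR2 (ENSDARG00000016454), 2.63 for hsd17b1, -1.38 for SOX9 (ENSDARG00000043923) and -5.78 for SOX9 (ENSDARG00000003293). The size of the last rests on almost no counts in heterozygotes at 8 mpf and is not firm. Among glycolysis genes it was -0.95 for PFKFB4, 0.76 for TPI1 (ENSDARG00000040988) and 4.24 for PKLR. Among immediate early genes it was -2.33 for CCN2, -1.21 for JUNB (ENSDARG00000074378), -2.90 for egr4 and 1.22 for ier2a. Among insulin and IGF pathway genes it was -1.80 for IRS2 (ENSDARG00000075282) and -0.65 for rheb. Among leukocyte markers it was 2.55 for PAX5, -2.44 for CXCR4 (ENSDARG00000041959), -1.51 for MMP9 and -1.55 for lgals2a. Among liver plasma protein genes it was 4.41 for CP, 3.79 for tfa, 7.72 for fabp10a, 5.66 for fetub, 1.61 for vtg1, 1.56 for vtg2, 1.18 for vtg3 and -2.92 for apoeb. Among lysosomal hydrolase and cathepsin genes it was -1.85 for ASAH1 (ENSDARG00000034817), 1.32 for GLA, -1.65 for PPT1 and 3.64 for dnase2. Among meiotic chromosome genes it was 0.74 for TRIP13, -4.02 for MSH4, 4.60 for TEX11 and 1.92 for rnf212. Among neuronal excitability genes it was 1.14 for ADCY8, 2.28 for kcnq1.1 and -2.08 for scn1laa. Among oocyte genes it was -0.58 for tdrd7a, -1.60 for cpeb1a, -1.02 for PIWIL2 and 3.85 for TDRD7. Among oxidative phosphorylation genes it was -0.64 for uqcrc2a. Among p53 target genes it was 0.41 for mdm2 and 2.26 for cdkn1a. Among proteasome subunit genes it was 1.07 for PSMB9, 2.74 for PSME1 and 0.79 for PSMB10. Among skeletal muscle and sarcomere genes it was 5.15 for actn3b, -1.39 for RYR1 (ENSDARG00000023797), -2.01 for TNNT3 (ENSDARG00000030270) and -1.59 for ckma. Among sterol synthesis genes it was 0.98 for LSS, 1.72 for PMVK and -3.84 for SQLE (ENSDARG00000079946). Outside the gene lists it was 4.02 for helz2c, -2.73 for slc52a3-2b, 2.80 for crlf1a, -1.58 for DLG4 (ENSDARG00000039385), 1.62 for MARCHF4 (ENSDARG00000055839), -2.17 for kcnj21, -2.85 for SLC43A2 (ENSDARG00000061120), -2.50 for klhl35, 3.72 for VIT, 4.46 for opn7d, 2.04 for KIF13A, -3.16 for KCTD12, -2.34 for mafbb, -2.12 for DOCK10, 2.85 for CCR6 (ENSDARG00000087474), -2.25 for GLUL (ENSDARG00000099776), 3.64 for cyp2aa7 and 4.19 for prkd4. For genes with no more than 3 counts in any library of 1 group the size of the fitted difference depends on the prior count, and the adjusted p of the interaction was 0.0287 for ca2, 1.21e-06 for RXFP2 (ENSDARG00000019660), 0.007 for DNAJB9 (ENSDARG00000052072), 1.71e-06 for ela2l, 1.36e-05 for alox5b.3, 0.00312 for GRIA2 (ENSDARG00000070173), 4.71e-05 for fap, 0.000225 for tmprss15, 0.000557 for si:ch73-112j3.1, 1.07e-05 for ENSDARG00000090551 and 5.66e-06 for si:dkey-277i15.2.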

How the results depend on the processing

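The number of genes with an interaction was 2554 with RLE scaling, 2564 with upper quartile scaling, 2512 with library size alone, 2231 with no filter on low counts, 2585 with a mean of at least 10 counts, 3459 with DESeq2, 2434 with limma on the deposited normalized values and a pseudocount of 1, and 2211 with a pseudocount of 0.1, against 2548. Requiring an absolute log2 interaction of at least 1 left 1556. On the linear CPM scale 2442 of the 2548 called genes kept the sign of their interaction, so for the rest the sign depends on the scale. Leaving out 1 library gave 1699 (without replicate 2 of the 50 dpf wild types) to 4118 (without replicate 2 of the 8 mpf wild types). Genes with 1 group standing apart numbered 159 for heterozygotes at 8 mpf, 153 for wild types at 8 mpf, 264 for heterozygotes at 50 dpf and 293 for wild types at 50 dpf with a gap of at least 2 times the range, and by calls alone 194, 185 and 360 for heterozygotes at 8 mpf, wild types at 8 mpf and wild types at 50 dpf. Leaving out 1 library gave 221 to 564 genes for wild types at 8 mpf, 326 to 773 for heterozygotes at 50 dpf and 370 to 877 for wild types at 50 dpf. The median of the fatty acid list was 0.17 with library size alone, -0.21 with limma and a pseudocount of 1 and -0.12 with 0.1, and that of the glycolysis list -0.060 with library size alone. The leukocyte median was -0.82 with no filter and the liver median 4.50 with limma and a pseudocount of 0.1. Leaving out 1 library moved list medians between 3.53 and 4.16 (liver), 1.98 and 2.79 (pancreas), -0.054 and 0.15 (fatty acid), -0.35 and -0.17 (glycolysis) and -0.091 and 0.33 (follicle somatic), and members called between 4 and 13 (follicle somatic) and 8 and 16 (immediate early). The cause of these shifts was not tested. With the replicate number as a block 2344 genes were called. Same-numbered libraries had weak correlations, -0.16 to 0.14 over 18 pairs, 3 of them over 0.1. Libraries with different numbers had -0.21 to 0.24. The numbers were therefore not read as pairs. However, 7 of 12 libraries correlated best with their own number, and how many would do so by chance was not computed. A weak shared deviation is thus not excluded. Of 136 named genes 111 kept their call in all 21 alternative settings and 25 lost it in at least 1. Most were named for a small p in the main fit, so this share does not speak for all 2548 called genes. None of the named genes changed direction in those settings, which all used the log2 scale. The most calls were lost by CASP2 (16 settings, adjusted p up to 0.19), NOG (14, up to 0.0903), mdm2 and rheb (13 each, up to 0.109 and 0.119), cycsb and RAD51B (12 each, up to 0.0998 and 0.104), vtg3 (11, up to 0.0856), PSMB9 (10, up to 0.11), and uqcrc2a, SMAD7, TNNT3 and IRS2 (9 each, up to 0.0996, 0.359, 0.0832 and 0.22). PSME1, ca2 and PSMB10 lost 8, tdrd7a 5, COL1A2 and CCND1 3, and dnajc3b, dbpb and vwf 2. ESR2, BMPR1A, amy2al1 and CASP6 lost 1. The replicate block ended the calls of ca2, mdm2, cycsb, NOG and CASP2 and of no other named gene, and it gave 1 call among p53 target genes (2 without it), 3 among apoptosis genes (5), 0 among erythrocyte markers (1) and 1, positive, among cytosolic ribosomal protein genes (0). Depth limits the low genes most: genes under 1 CPM, such as ca2, rest on few counts per library, and counting error adds to the spread of replicates there.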

Other observations

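5 genes, found after the values were seen, had no more than 1 count in each library of 1 group and at least 1 CPM in all 9 libraries of the others. RXFP2, described above, was 1 of 3 such genes in heterozygotes at 50 dpf, and no gene met this for heterozygotes at 8 mpf. The rule is on raw counts, and depth differed between these groups. Libraries held 31806697 to 38176388 counts for heterozygotes at 50 dpf and 43003225 to 96839220 for heterozygotes at 8 mpf. The part of depth in these numbers of genes was not tested. tmprss15, related to the intestinal protease enteropeptidase, had 1.72, 2.12 and 1.73 CPM in heterozygotes against 7.19, 10.4 and 8.86 CPM in wild types at 8 mpf, and 0, 0 and 0 CPM in heterozygotes against 2.11, 1.82 and 2.38 CPM in wild types at 50 dpf. Heterozygotes at 50 dpf were at least 20.9-fold lower than wild types against a floor of 3 counts per library. si:ch73-112j3.1 had 1.29, 1.12 and 1.25 CPM in heterozygotes against 3.40, 6.59 and 5.38 CPM in wild types at 8 mpf, and 0, 0 and 0 CPM in heterozygotes against 2.01, 1.91 and 1.82 CPM in wild types at 50 dpf, at least 19.0-fold lower in heterozygotes at 50 dpf. In both genes wild types at 8 mpf were the highest group.

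ENSDARG00000090551, which has no symbol in the files, had 1.09, 1.303 and 1.28 CPM in heterozygotes against 1.66, 1.29 and 1.45 CPM in wild types at 8 mpf, and 3.81, 2.75 and 2.14 CPM in heterozygotes against 0, 0 and 0 CPM in wild types at 50 dpf. It was at 0 in wild types at 50 dpf alone, where heterozygotes were at least 44.9-fold higher. si:dkey-277i15.2 had 3.16, 2.49 and 3.26 CPM in heterozygotes against 0, 0 and 0 CPM in wild types at 8 mpf, and 4.33, 3.59 and 4.22 CPM in heterozygotes against 1.79, 2.38 and 2.33 CPM in wild types at 50 dpf. It was at 0 in wild types at 8 mpf alone, where heterozygotes were at least 59.6-fold higher.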
